A study of Mus musculus with 6 samples.

Results

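The 10 ligands of the tumour necrosis factor (TNF) superfamily described here are Tnf, Tnfsf4, Tnfsf8, Tnfsf9, Tnfsf10, Tnfsf11, Tnfsf12, Tnfsf13, Tnfsf13b and Tnfsf14. They were picked by gene symbol, by a rule that uses no measured value, out of 55335 gene identifiers in the expression table. The choice of this family was nevertheless made with earlier results of these data known. RNA-seq was performed on bone marrow-derived macrophages (BMDMs), which are bone marrow cells grown for 7 days with 25 ng/ml macrophage colony-stimulating factor. The BMDMs came from Cd177 WT mice and were cultured for 24 h with neutrophils that had been isolated magnetically from the injured mouse spinal cord at 3 days post injury, after which Ly6G-negative macrophages were sorted. The neutrophils came from Cd177 WT mice in 3 libraries and from Cd177 knockout (KO) mice in the other 3, so the only labelled difference between the groups is the genotype of the neutrophils. The study's methods give male mice, and purchased adult C57BL/6 mice of 8 weeks, without saying which animals gave the cells of each culture. BMDMs cultured without neutrophils were not analysed here.

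Ligands of this superfamily are mostly made as trimeric membrane proteins that act on neighbouring cells, and several are also cut off by proteases and act at a distance. They bind receptors of the TNF receptor superfamily, which signal to NF-kB and MAP kinases or, where the receptor holds a death domain, can start cell death, while decoy receptors bind ligand without passing on a signal. Macrophages are a principal source of Tnf itself, and they also make ligands that costimulate T cells or keep B cells alive.

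The sequences before the start sites are shown first because the ligands below moved in both directions. RefSeq promoters (GRCm38.p6) were found for 7 of the 10 ligands. Each line gives the 250 bases before the RefSeq start, 5′ to 3′ on the gene's strand. GENCODE M21 places the start of some genes further upstream, so that 230 bases of the Tnfsf13 line and 49 of the Tnfsf10 line lie inside the gene as given below. Capitals mark matches on either strand to the NF-kB frame GGGNNNNNCC or to the AP-1 motif TGANTCA. Tnf (chr17:35202008-35202257, minus strand) and Tnfsf14 (chr17:57194182-57194431, minus strand) were lower in the KO-labelled libraries, Tnfsf10 (chr3:27316827-27317076, plus strand) was lower by the most among the ligands detected in both groups, and Tnfsf13 (chr11:69685555-69685804, minus strand) was higher.
Tnf: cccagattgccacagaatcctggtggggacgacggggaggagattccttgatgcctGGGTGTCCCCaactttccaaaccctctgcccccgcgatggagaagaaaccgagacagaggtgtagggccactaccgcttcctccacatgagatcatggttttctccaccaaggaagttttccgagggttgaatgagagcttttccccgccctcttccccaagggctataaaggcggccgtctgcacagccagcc
Tnfsf14: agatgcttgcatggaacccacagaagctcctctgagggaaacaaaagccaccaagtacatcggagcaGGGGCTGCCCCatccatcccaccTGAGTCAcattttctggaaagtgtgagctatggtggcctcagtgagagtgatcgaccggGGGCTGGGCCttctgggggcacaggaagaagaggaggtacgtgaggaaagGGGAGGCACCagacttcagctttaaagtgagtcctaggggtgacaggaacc
Tnfsf10: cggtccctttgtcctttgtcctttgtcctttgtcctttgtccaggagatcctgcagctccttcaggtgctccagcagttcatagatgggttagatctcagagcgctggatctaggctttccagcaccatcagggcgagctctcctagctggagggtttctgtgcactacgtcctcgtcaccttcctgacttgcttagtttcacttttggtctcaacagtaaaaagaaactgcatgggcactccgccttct
Tnfsf13: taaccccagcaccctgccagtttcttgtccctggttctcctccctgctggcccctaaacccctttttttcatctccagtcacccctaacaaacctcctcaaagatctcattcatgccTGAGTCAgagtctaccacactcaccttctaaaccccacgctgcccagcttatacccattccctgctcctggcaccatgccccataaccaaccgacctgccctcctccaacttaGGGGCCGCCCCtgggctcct

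The NF-kB frame was found in the promoters of Tnf, Tnfsf11, Tnfsf13 and Tnfsf14, and also in 45.8% of all 32851 promoters of this length and in 61.2% of those of tested genes. In Tnf the match lay 194 to 185 bases before the start. A narrower form of it, GGGNNTTTCC, was in none of the members' promoters and in 1.41% of all. The AP-1 motif was in the promoters of Tnfsf13, Tnfsf13b and Tnfsf14 and in 6.75% of all (4.62% of tested genes), and the core of the interferon-stimulated response element, GAAANNGAAA, was in 1 of the promoters of Tnfsf13b and in 2.98% of all (2.81% of tested genes). Tnfsf10 held none of the 4 motifs. Tnfsf14, which was lower, and Tnfsf13, which was higher, both held matches to the NF-kB frame and the AP-1 motif. The matches of Tnfsf13 lay inside the gene as GENCODE M21 places it. Over all genes the AP-1 motif was in 8.16% of promoters of genes called lower and 3.71% of those called higher. For the interferon-stimulated core these shares were 7.15% and 2.52%. For the NF-kB frame they were close to each other, at 59.7% and 61.2%, and for its narrower form 2.41% and 1.22%. Whether any motif bears on the direction of a ligand was not tested.

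The Tnf transcript also carries an AU-rich element, the kind of sequence through which proteins of the Zfp36 family shorten the life of cytokine mRNAs. After the coding end of the Tnf transcript the nonamer TTATTTATT occurred 5 times within 767 bases. Among the other 9 ligands, Tnfsf13b held 1 match and the remaining 8 held 0. Of 11320 tested genes, 7.98% held at least 1 and 12 genes held 5 or more. At least 1 was held by 9.4% of the genes called lower and 7.3% of those called higher. The Tnf stretch lies in the 3′ UTR, at chr17:35199678-35199707 on the minus strand (GRCm38), and is written as DNA. The matches overlap and cover 31 bases, of which the first 30 are printed, so that 4 of the 5 are complete in this line.
Tnf AU-rich element: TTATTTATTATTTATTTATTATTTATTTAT

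The libraries summed to 302532 to 340717 FPKM (fragment counts corrected for transcript length and library total), and their lowest values implied about 17600000 to 20200000 fragments each. Pearson correlations of log2 values were 0.967 to 0.985 within the WT-labelled libraries, 0.977 to 0.984 within the KO-labelled and 0.905 to 0.917 between them. Cd177 itself was listed at 0.544, 0.309 and 0.521 FPKM in the WT-labelled libraries and at 1.79, 1.84 and 2.28 FPKM in the KO-labelled (log2 fold change 1.37, adjusted p = 0.000827, limma). This runs against the labels, although the sequenced BMDMs are Cd177 WT by their labels and the gene therefore does not check them directly. The groups are accordingly called WT-labelled and KO-labelled, and all directions rest on these labels. The sorted macrophages carried their defining markers Adgre1, Csf1r and Cd68. The 10 macrophage markers summed to 6745 to 8117 FPKM in the WT-labelled and 7549 to 8243 FPKM in the KO-labelled libraries, mostly from Lyz2. Of these 10, 2 were lower and 3 higher (over all tested genes 10.5% and 27.1%). Cd14 averaged 1010 FPKM against 99.4 FPKM (log2 fold change -3.33), Fcgr1 121 against 33.8 FPKM (-1.83) and Mrc1 28.0 against 221 FPKM (2.96). Some of the macrophages' own markers thus moved with the groups, and their part in the ligand results was not tested.

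In the KO-labelled libraries 6 of the 8 ligands that could be tested were lower (Tnf, Tnfsf4, Tnfsf9, Tnfsf10, Tnfsf11 and Tnfsf14) and 2 were higher (Tnfsf12 and Tnfsf13). Tests were made with limma on log2(FPKM + 0.5) in genes that averaged 0.5 FPKM or more, at an adjusted p under 0.05 (Benjamini-Hochberg), and Tnfsf8 and Tnfsf13b were below that level. Tnfsf4 and Tnfsf10 passed it only through the WT-labelled libraries, so their difference bears on their being tested. In the 6 ligands that averaged 0.5 FPKM or more in both groups, 4 were lower and 2 higher. Of all 13367 tested genes, 10.5% were called lower and 27.1% higher. Among the calls over all genes 72.0% were higher, or 49.3% with the libraries rescaled by median of ratios, which left the direction of every ligand as it was. The median log2 fold change was 0.19 over all tested genes and -0.95 over the 8 ligands. Tnfsf4 and Tnfsf10 are among these 8, so the same limit holds for the ligand median. The fold change of each ligand detected in both groups is given below also relative to the median of all tested genes. The cutoffs of the study, a fold change above 2 and unadjusted p under 0.05, were applied to the limma fit. The study itself used them with DESeq2, so its calls can differ. By these cutoffs Tnf, Tnfsf4 and Tnfsf10 were lower and 0 ligands were higher, against 4.43% and 6.68% of all tested genes. This count depends on the value added before the logarithm: with 0.1 added, Tnfsf11 and Tnfsf14 were also lower and Tnfsf13 was higher, and with 1 added Tnfsf4 was not past the fold. With median-of-ratios scaling 5 were lower. Without WT-labelled replicate 3, Tnf was not past it. The 3 values of each group did not overlap in any of the 8 tested ligands, 6 lower and 2 higher, against 14.4% and 37.5% of all tested genes. The lower ones again include Tnfsf4 and Tnfsf10. With 3 libraries against 3 an exact two-sided permutation test cannot go below p = 0.1, which each of the 8 reached. In these bulk libraries, fewer cells that make a ligand and less of its RNA per cell cannot be told apart.

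**Figure D1:**
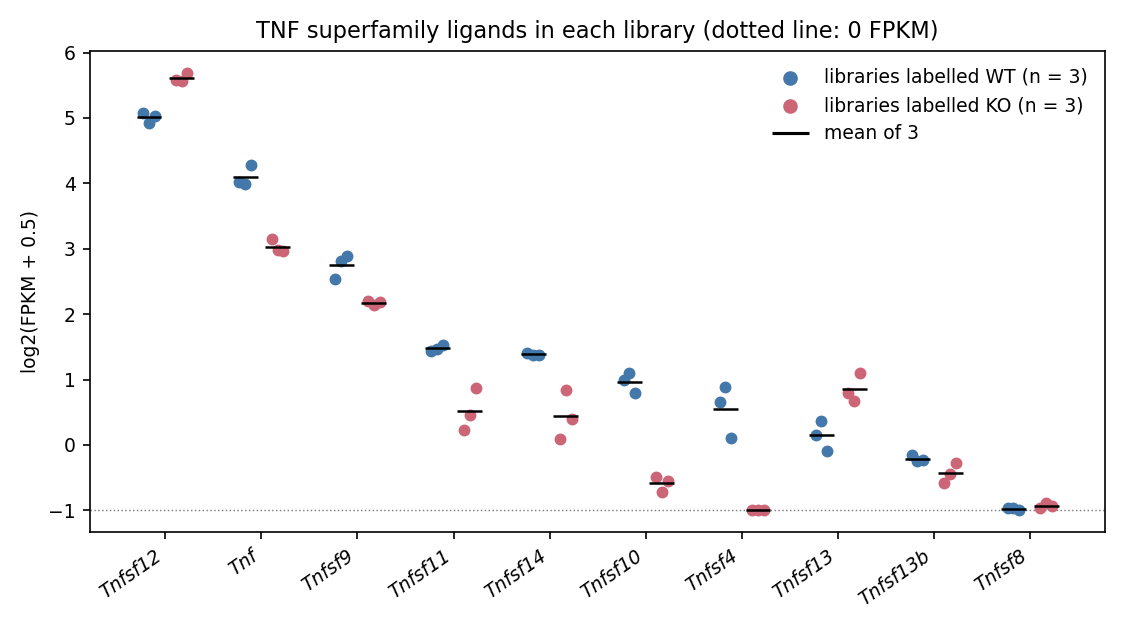
Level of each of the 10 ligands as log2(FPKM + 0.5) on the vertical axis, with 1 point per library (blue for WT-labelled, red for KO-labelled, 3 each) and a bar at the mean of 3. Tnfsf12 and Tnfsf13 lie higher in red, 6 ligands from Tnf to Tnfsf4 lie lower, and Tnfsf4 sits on the dotted line of 0 FPKM in all 3 KO-labelled libraries.

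Tnf (ENSMUSG00000024401, chromosome 17, 35199381 to 35202007, minus strand, GRCm38), the founding inflammatory cytokine of the family, measured 15.8, 15.4 and 18.9 FPKM in the WT-labelled and 8.36, 7.40 and 7.35 FPKM in the KO-labelled libraries. The lowest WT-labelled value was well above the highest KO-labelled one. The means were 16.7 ± 1.92 and 7.70 ± 0.571 FPKM (SD, n = 3 each), which is 2.17-fold higher in the WT-labelled group. The log2 fold change was -1.07 (SE 0.11, adjusted p = 0.00051, limma), or -1.25 relative to the median of all genes.

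Tnf acts through Tnfrsf1a, the death domain receptor that most cells carry, and Tnfrsf1b, which is common on leukocytes. Neither was called. Tnfrsf1a measured 66.3, 67.0 and 68.9 FPKM against 74.9, 73.4 and 83.4 FPKM (log2 fold change 0.19, 95% interval -0.0006 to 0.39, adjusted p = 0.107). Tnfrsf1b measured 161, 163 and 129 FPKM against 143, 143 and 131 FPKM (log2 fold change -0.11, 95% interval -0.38 to 0.16, adjusted p = 0.471). Transcripts of both receptors thus stood several times above those of their ligand in every library, on the same per-length scale.

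Tnfsf10 (TRAIL, chromosome 3, 27317028 to 27342427, plus strand), which can start apoptosis in sensitive target cells, showed the largest ratio among ligands detected in both groups. It measured 1.499, 1.65 and 1.24 FPKM in the WT-labelled and 0.210, 0.106 and 0.185 FPKM in the KO-labelled libraries. All 3 KO-labelled values were far below the WT-labelled range. The ratio of the means was 8.75, and the log2 fold change on the scale with 0.5 added, which understates changes at this level, was -1.55 (SE 0.15, adjusted p = 0.000386, limma), or -1.74 relative to the median of all genes.

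Its receptors moved apart. Tnfrsf22 and Tnfrsf23, the mouse decoy receptors for TRAIL, were both lower. Tnfrsf23 measured 20.2, 20.6 and 16.5 FPKM against 5.90, 5.45 and 5.15 FPKM (log2 fold change -1.70, adjusted p = 7.77e-05), and Tnfrsf22 had a log2 fold change of -0.998 (adjusted p = 0.00162). Tnfrsf10b, the death receptor that signals for TRAIL, measured 3.04, 2.91 and 2.52 FPKM against 4.59, 3.79 and 3.71 FPKM and was higher (log2 fold change 0.44, adjusted p = 0.0277). The call of Tnfrsf10b was lost without KO-labelled replicate 1 (adjusted p = 0.103), KO-labelled replicate 2 (0.0656) or WT-labelled replicate 2 (0.0607), and in 8 of 18 alternatives in all, among them each of the 4 other scalings, with an adjusted p from 0.0502 to 0.172. Both decoys were called in every alternative.

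Tnfsf11 (RANKL, chromosome 14, 78277445 to 78308043, minus strand), the ligand that drives osteoclast formation from macrophage precursors, measured 2.20, 2.27 and 2.39 FPKM in the WT-labelled and 0.676, 0.872 and 1.33 FPKM in the KO-labelled libraries. The WT-labelled values lay close together, the KO-labelled ones were more spread and did not reach them. The log2 fold change was -0.96 (SE 0.18, adjusted p = 0.00623, limma), or -1.14 relative to the median of all genes.

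Its signalling receptor Tnfrsf11a (RANK) and its soluble decoy Tnfrsf11b (osteoprotegerin) were both higher. Tnfrsf11a measured 7.48, 7.40 and 5.52 FPKM against 15.4, 14.8 and 12.7 FPKM (log2 fold change 1.03, adjusted p = 0.0017). Tnfrsf11b measured 6.51, 6.46 and 6.66 FPKM against 15.0, 15.9 and 14.6 FPKM (log2 fold change 1.15, adjusted p = 9.00e-05). The ratio of ligand to decoy, in FPKM, was 0.349 ± 0.0104 in the WT-labelled and 0.0637 ± 0.0242 in the KO-labelled libraries (SD, n = 3 each), with no overlap between groups.

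Tnfsf14 (LIGHT, chromosome 17, 57189492 to 57194177, minus strand), which binds both Tnfrsf14 and the lymphotoxin beta receptor, measured 2.15, 2.101 and 2.09 FPKM in the WT-labelled and 0.567, 1.29 and 0.810 FPKM in the KO-labelled libraries. The WT-labelled libraries were nearly equal and the KO-labelled ones all lower. The log2 fold change was -0.94 (SE 0.20, adjusted p = 0.00975, limma), or -1.13 relative to that median. For Tnfrsf14 (log2 fold change 0.28, 95% interval -0.34 to 0.91, adjusted p = 0.437) and Ltbr (-0.07, 95% interval -0.26 to 0.12, adjusted p = 0.52) no difference passed the test, and the interval of Tnfrsf14 still allows a change in either direction.

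The ligands that costimulate T cells differed in level. Tnfsf9 (4-1BBL, chromosome 17, 57105325 to 57107757, plus strand) measured 5.32, 6.56 and 6.90 FPKM in the WT-labelled and 4.08, 3.92 and 4.06 FPKM in the KO-labelled libraries, with the first WT-labelled library nearest to the other group. The log2 fold change was -0.57 (SE 0.12, adjusted p = 0.00861, limma), or -0.76 relative to the median of all genes. An antisense lincRNA, Gm11110, overlaps the gene, and without known strand use in the counting its reads cannot be told apart from those of Tnfsf9. It measured 0.574, 1.64 and 1.179 FPKM against 0.742, 0.273 and 0.494 FPKM (adjusted p = 0.119). The receptor Tnfrsf9 measured 0.9748, 0.903 and 0.441 FPKM against 0.291, 0.340 and 0.324 FPKM and was not called (log2 fold change -0.61, adjusted p = 0.054), but was lower without WT-labelled replicate 3 (adjusted p = 0.00677).

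Tnfsf4 (OX40L, chromosome 1, 161395409 to 161418410, plus strand) was listed at 1.08, 1.35 and 0.574 FPKM in the WT-labelled libraries and at 0 in all 3 KO-labelled ones (adjusted p = 0.00217, limma). No fold is given, because the deposited values hold no counts and a listed 0 can be a failed estimate. The p-value and every call of Tnfsf4 rest on these listed values of 0 and carry the same limit. Tnfsf8 (CD30L, chromosome 4, 63831308 to 63861347, minus strand) ranged from 0 to 0.0379 FPKM over the 6 libraries, where 1 fragment is worth about 0.0144 FPKM, so no difference could be detected at this depth. The receptors of these ligands, Tnfrsf4 and Tnfrsf8, which are typical of activated lymphocytes, were below the level for testing. Tnfrsf4 ranged from 0.249 to 0.761 FPKM over the 6 libraries. Tnfrsf8 measured 0.0913, 0.0478 and 0.0641 FPKM in the WT-labelled and 0.131, 0.386 and 0.329 FPKM in the KO-labelled libraries.

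Tnfsf12 (TWEAK, chromosome 11, 69686250 to 69695849, minus strand), which acts on Tnfrsf12a in injured and growing tissue, was the most abundant ligand in every library and was higher in the KO-labelled ones. It measured 33.3, 29.8 and 32.2 FPKM against 47.1, 46.9 and 51.3 FPKM, a clear gap between groups. The log2 fold change was 0.60 (SE 0.083, adjusted p = 0.00182, limma), or 0.41 relative to the median of all genes. Its receptor Tnfrsf12a (Fn14) measured 41.3, 24.7 and 21.9 FPKM against 20.9, 18.7 and 23.8 FPKM, was overlapping between groups and was not called (log2 fold change -0.41, 95% interval -0.97 to 0.15, adjusted p = 0.21).

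Tnfsf13 (APRIL) and Tnfsf13b (BAFF) keep B cells and plasma cells alive through shared receptors. Tnfsf13 (chromosome 11, 69682846 to 69685784, minus strand) measured 0.612, 0.792 and 0.441 FPKM in the WT-labelled and 1.23, 1.10 and 1.65 FPKM in the KO-labelled libraries, without overlap. The log2 fold change was 0.71 (SE 0.18, adjusted p = 0.0211, limma), or 0.52 relative to the median of all genes. This call was the least firm of the 8, since it was lost without WT-labelled replicate 1 (adjusted p = 0.0588), KO-labelled replicate 1 (0.0554) or KO-labelled replicate 3 (0.0613). Tnfsf13b (chromosome 8, 10006467 to 10039072, plus strand) was below the level for testing and measured 0.396, 0.345 and 0.354 FPKM against 0.169, 0.233 and 0.327 FPKM. The ratio of Tnfsf13 to Tnfsf13b was 1.70 ± 0.542 in the WT-labelled and 5.67 ± 1.40 in the KO-labelled libraries (SD, n = 3 each).

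Tnfsf12 and Tnfsf13 are neighbours on chromosome 11, and the annotated read-through gene Tnfsfm13 (69682577 to 69696098, same strand) spans both. It measured 7.58, 8.59 and 4.99 FPKM against 16.2, 16.7 and 14.1 FPKM (log2 fold change 1.13, SE 0.19, adjusted p = 0.0044). All 3 genes of this locus were therefore higher in the KO-labelled libraries. The split of reads among them, and with the antisense gene Tnfsf13os at 0.255 to 0.639 FPKM, is uncertain, because the counting method is not given in the sources used here.

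Tnfrsf13b (TACI), the receptor that binds both APRIL and BAFF, was the receptor with the largest rise. It measured 2.85, 2.46 and 3.34 FPKM in the WT-labelled and 12.4, 10.5 and 12.0 FPKM in the KO-labelled libraries (log2 fold change 1.85, adjusted p = 8.48e-05). Tnfrsf13c, the receptor of BAFF alone, was listed at 0 in all 6 libraries, and Tnfrsf17 reached at most 0.1997 FPKM.

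Over the 16 receptors of these ligands, 12 could be tested, of which 2 were lower, 4 were higher and 6 did not pass the test (10.5% lower and 27.1% higher over all genes), with a median log2 fold change of 0.06. Without WT-labelled replicate 3, Tnfrsf1b (adjusted p = 0.0406) and Tnfrsf9 joined the lower ones, giving 4. The decoys of TRAIL and the receptor of APRIL were called in the same direction as the ligand, and both receptors of RANKL and Tnfrsf10b in the opposite one, where the calls of Tnfsf13 and Tnfrsf10b are the less firm ones.

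**Figure D2:**
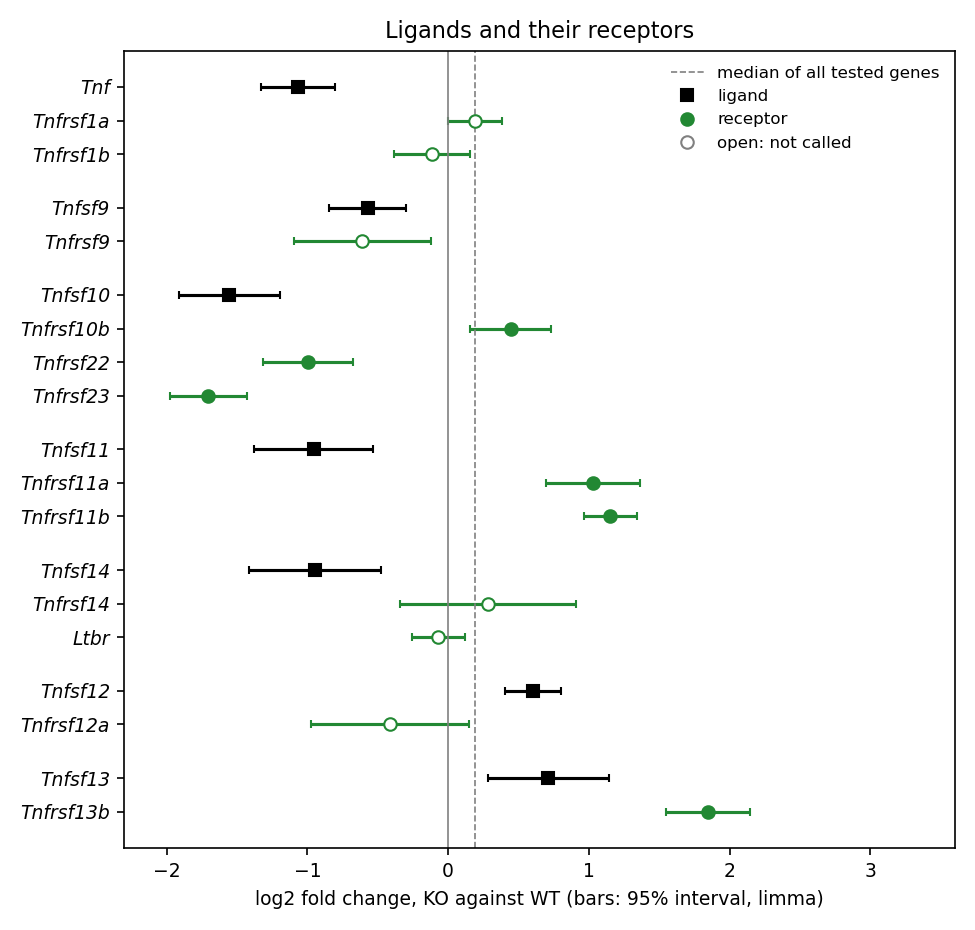
Log2 fold change of KO-labelled against WT-labelled libraries on the horizontal axis, for 7 tested ligands (black squares) each followed by its tested receptors (green circles), with 95% intervals from limma. Open symbols did not pass an adjusted p of 0.05, and the dashed line is the median of all tested genes at 0.19. Tnfsf11 at -0.96 stands opposite Tnfrsf11a at 1.03 and Tnfrsf11b at 1.15.

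In both groups the order of the ligands by level began with Tnfsf12, then Tnf, then Tnfsf9, each without overlap with the next. Below them the order in the WT-labelled libraries was Tnfsf11, Tnfsf14, Tnfsf10, Tnfsf4, Tnfsf13, Tnfsf13b and Tnfsf8, where the ranges of Tnfsf10 and Tnfsf4 and those of Tnfsf4 and Tnfsf13 overlapped. In the KO-labelled libraries it was Tnfsf13, Tnfsf11, Tnfsf14, Tnfsf13b, Tnfsf10, Tnfsf8 and Tnfsf4, and there the ranges of Tnfsf13, Tnfsf11 and Tnfsf14 overlapped from one to the next, as did those of Tnfsf13b and Tnfsf10.

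On the values as deposited, the summed level of the 10 ligands was 62.6 ± 2.43 FPKM in the WT-labelled and 63.8 ± 2.80 FPKM in the KO-labelled libraries (SD, n = 3 each), with overlapping ranges. The sums were not made on rescaled values. With median-of-ratios scaling the log2 fold change of Tnfsf12 was 0.39, against 0.60 without it, so the likeness of the sums depends on the scaling. Its make-up differed. Tnfsf12 held 50.8 ± 2.28% of the sum in the WT-labelled and 75.9 ± 0.530% in the KO-labelled libraries, where its split of reads with Tnfsfm13 is uncertain. Tnf held 26.6 ± 2.08% and 12.1 ± 1.22%. Without Tnfsf12 the sum was 30.8 ± 1.93 FPKM and 15.3 ± 0.384 FPKM, without overlap between the groups.

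**Figure D3:**
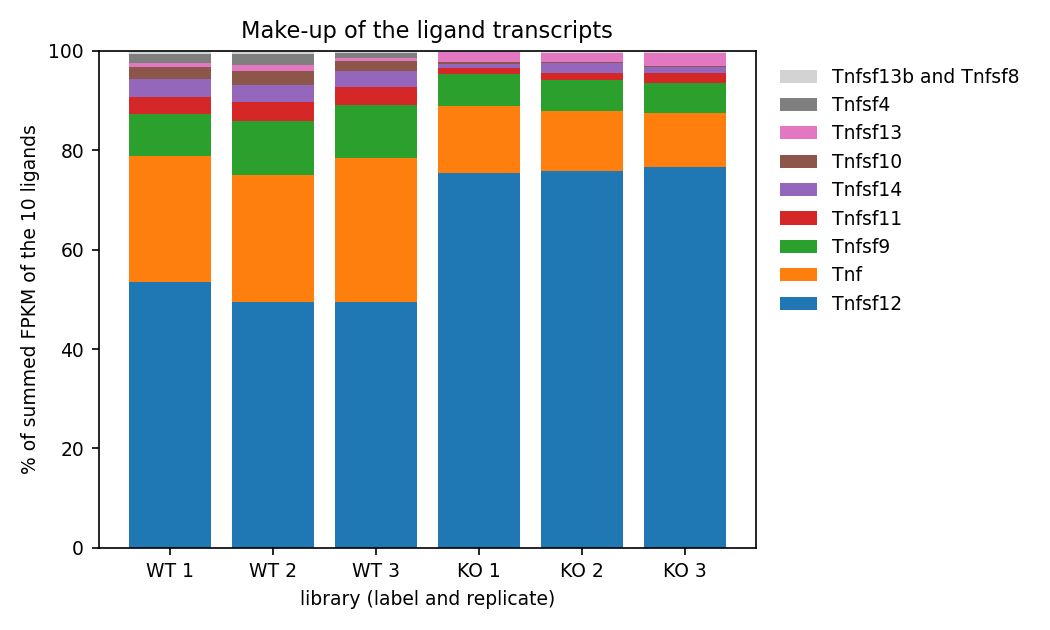
Share of each ligand in the summed FPKM of the 10 ligands, in percent, with 1 stacked bar per library. Tnfsf12 (blue, bottom) takes 49.4 to 53.4% of the sum in the WT-labelled and 75.5 to 76.5% in the KO-labelled libraries, and Tnf (orange) takes 25.3 to 29.0% and 10.97 to 13.4%.

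Set among all tested genes, the ligands lay on both sides of the diagonal at low to middle levels. The genes with profiles most like that of Tnf, by the smallest root mean square difference of centred log2 values over the 6 libraries, were Gm6560 (0.0471), Ptger2 (0.0547), BC051226 (0.0559), Fcgr4 (0.0692) and Mfsd2a (0.0749). Ptger2 encodes a prostaglandin E2 receptor and Fcgr4 a receptor for the constant part of IgG. Ptger2 measured 5.77, 5.60 and 7.04 FPKM against 2.72, 2.76 and 2.59 FPKM, with its highest value in WT-labelled replicate 3 as for Tnf. Among the ligands the nearest to Tnf was Tnfsf11, at 0.251.

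**Figure D4:**
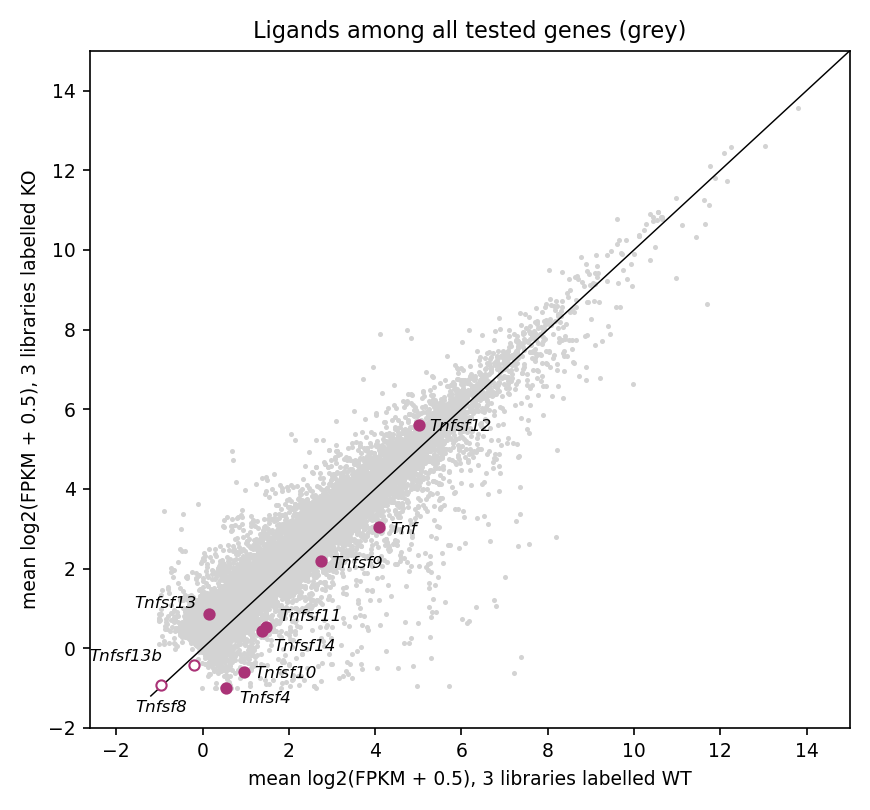
Mean log2(FPKM + 0.5) of the 3 WT-labelled libraries on the horizontal axis and of the 3 KO-labelled libraries on the vertical axis, for all 13367 tested genes (grey) and the 10 ligands (purple, open where below the level for testing). Points under the black diagonal are lower in the KO-labelled libraries, as are Tnf, Tnfsf4, Tnfsf9, Tnfsf10, Tnfsf11 and Tnfsf14.

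The other ligands of the superfamily, Lta, Ltb, Fasl, Cd40lg, Cd70, Tnfsf15, Tnfsf18 and Eda, are known mainly from lymphocytes, endothelium or epithelium. All 8 were below the level for testing. Cd70 was listed at 0 in every library and the highest single value was 0.534 FPKM, of Ltb in a KO-labelled library. Eda measured 0.0617, 0.0807 and 0.146 FPKM against 0.327, 0.306 and 0.3004 FPKM.

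Of 8 genes for shedding and processing of the membrane-bound ligands, 3 were lower, 0 were higher and 5 did not pass the test (over all genes 10.5% and 27.1%). Sppl2a, an intramembrane protease that cleaves the stub left by TNF shedding, measured 51.3, 53.5 and 51.6 FPKM against 20.5, 20.3 and 22.5 FPKM (log2 fold change -1.29, adjusted p = 5.18e-05). Rhbdf2 (iRhom2), which brings the TNF-cutting enzyme to the surface of macrophages, had a log2 fold change of -0.90 (adjusted p = 0.00226). Timp3, the inhibitor of that enzyme, had one of -0.54 (adjusted p = 0.0109). The enzyme itself, Adam17, measured 26.9, 26.9 and 25.7 FPKM against 26.9, 22.2 and 13.7 FPKM and was not called (adjusted p = 0.229), with KO-labelled replicate 3 alone well below the rest.

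Of 9 genes that control cytokine mRNAs, 2 were lower, 2 were higher and 5 did not pass the test (over all genes 10.5% and 27.1%). Zfp36 (tristetraprolin), which binds AU-rich elements like that of Tnf, measured 38.6, 37.5 and 38.8 FPKM against 31.6, 30.2 and 33.5 FPKM (log2 fold change -0.27, adjusted p = 0.0327). That call was lost without replicate 1 or 2 of either group, with an adjusted p from 0.0675 to 0.132. Its paralogs Zfp36l1 (log2 fold change 1.11, adjusted p = 0.000109) and Zfp36l2 (0.52, adjusted p = 0.00186) were higher. Zc3h12a (Regnase-1), an RNase for inflammatory mRNAs, measured 23.6, 23.3 and 21.5 FPKM against 9.04, 8.90 and 10.2 FPKM (log2 fold change -1.24, adjusted p = 0.000119).

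Of 25 genes for signalling downstream of TNF receptors, 4 were lower, 3 were higher and 18 did not pass the test, with a median log2 fold change of 0.02. Over all genes 10.5% were lower and 27.1% higher, so the share lower was near that of all genes. Nfkbia and Tnfaip3 are known as feedback inhibitors of NF-kB. Nfkbia measured 69.1, 70.0 and 77.4 FPKM against 35.1, 34.1 and 36.2 FPKM (log2 fold change -1.03, adjusted p = 0.000163), and Tnfaip3 (A20) measured 12.0, 19.6 and 15.9 FPKM against 8.40, 6.77 and 6.30 FPKM (-1.08, adjusted p = 0.00509). Cflar, an inhibitor of caspase-8 activation, had a log2 fold change of -0.84 (adjusted p = 0.00579). Map3k14 (NIK), the kinase of the non-canonical NF-kB pathway, had one of 0.87 (adjusted p = 0.00527). With the libraries rescaled by median of ratios, 8 genes of this list were called lower and 1, Map3k14, higher, and the calls of Ripk1 (log2 fold change 0.39, adjusted p = 0.0435) and Casp8 (0.33, adjusted p = 0.0314) were lost. Casp8 was also lost without WT-labelled replicate 1 or 2 or KO-labelled replicate 1 or 3, and Ripk1 without WT-labelled replicate 2 or 3 or KO-labelled replicate 1 or 2.

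Markers of some other cell types differed between the groups as well. The 15 neutrophil markers summed to 202 to 262 FPKM in the WT-labelled and 557 to 572 FPKM in the KO-labelled libraries. Of these 15, 13 were higher in the KO-labelled without overlap, against 37.5% of all tested genes. S100a9 measured 82.4, 75.9 and 113 FPKM against 244, 221 and 238 FPKM. Ly6g, the antigen of the sort, was listed at 0 in all WT-labelled libraries and at 0.660, 0.547 and 0.403 FPKM in the KO-labelled. Mmp8 went the other way, at 21.8, 24.5 and 19.5 FPKM against 9.88, 10.2 and 9.27 FPKM (log2 fold change -1.12, adjusted p = 0.000359, limma). The 6 B cell markers summed to 0.711 to 1.35 and 13.1 to 15.4 FPKM, nearly all from Ighm and Cd79b. The 8 T and NK cell markers summed to 1.95 to 2.46 and 5.62 to 7.26 FPKM, mostly from Cd4, with Cd3d listed at 0 throughout. The 6 dendritic cell markers summed to 0.610 to 1.24 and 0.314 to 0.594 FPKM with Flt3 listed at 0. The 6 stromal and endothelial markers summed to 358 to 531 and 461 to 524 FPKM, with overlapping ranges, nearly all from Col1a1 and Col1a2. Col1a1 measured 361, 330 and 228 FPKM against 337, 344 and 292 FPKM, near the level of Csf1r at 232 to 293 FPKM. The 8 spinal cord markers summed to 15.6 to 18.2 and 17.3 to 22.5 FPKM, also overlapping, with Aqp4 and Snap25 listed at 0. In that last list P2ry12, a microglial marker, measured 0.177, 0.214 and 0.261 FPKM against 2.52, 6.49 and 7.20 FPKM (log2 fold change 2.93, adjusted p = 0.000903), and Tmem119, another one, was not called (-0.32, adjusted p = 0.0607). The part of these cells in the ligand results was not tested.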

How the data were processed

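FPKM values per gene of the 6 BMDM libraries were analysed as deposited by the authors. The submitters' processing notes name fastp 0.17.1, HISAT2 2.1.0, DESeq2 1.18.1 and R 3.4.3. The program that made the FPKM, the annotation and the build are not given in the sources used here, and labels and methods name different RNA kits, library kits and sequencers. Counts were not analysed here: only 39.7% to 43.9% of low values lay within 0.1 of a whole fragment, where 20% would by chance. Of the identifiers, 55154 (99.7%) matched GENCODE M21 (GRCm38).

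Log2(FPKM + 0.5) was tested with limma 3.58.1 in R 4.3.3 (lmFit, eBayes with trend, two-sided, no covariate) in the 13367 genes averaging 0.5 FPKM or more, with Benjamini-Hochberg adjustment. The procedure was tested on simulated data. Nothing says that replicates came from separate animals, so p-values measure the spread between these libraries, which may be technical. Log2 fold changes are KO-labelled minus WT-labelled.

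Members and gene lists were chosen with earlier results of these data known. Named were all members, other ligands and receptors, the 4 called genes with the largest change per further list, with Adam17, Zfp36 and Tnfaip3, selected markers and the 5 genes most like Tnf. Motifs were searched on both strands of RefSeq promoters, and the nonamer in the longest coding transcript of each gene, from the stop codon on. No promoter was found for Tnfsf4, Tnfsf9 and Tnfsf12. Alternatives changed the pseudocount, filter, scaling, variance estimate, block and libraries.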

Additional observations from a re-analysis of the deposited data

How the results depend on the processing

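Of the 8 ligand calls, 7 kept their direction and passed the test under every alternative in which they were tested. Tnf ranged from -1.27 to -0.94 (log2 fold change, adjusted p from 0.000277 to 0.00428, limma, 18 alternatives). Tnfsf13 kept its direction but lost its call in 6 of 17 alternatives, so that only 1 ligand was called higher with no filter, quantile normalization or both replicates numbered 3 left out. With a mean of at least 1 FPKM, Tnfsf4, Tnfsf10 and Tnfsf13 were not tested, and 4 ligands were called lower and 1 higher. Leaving out 1 library at a time gave 6 ligands lower each time and 1 to 2 higher. By the study's rule applied to the limma fit, 3 ligands were lower and 0 higher, and over all genes 592 were lower and 893 higher. In combinations chosen after seeing the data, that rule gave 5 ligands lower and 1 higher with a pseudocount of 0.1, 2 lower and 0 higher with 1, and 5 lower and 0 higher with median-of-ratios scaling.

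Scaling mattered for the whole table. The median log2 fold change of all genes went from 0.19 to -0.00046 with median-of-ratios scaling, under which 2215 genes were lower and 2156 higher (49.3% of calls higher, against 72.0% of 1408 lower and 3619 higher). No ligand changed direction under any scaling. That scaling also gave 4 receptors lower and, for the signalling genes, 8 lower and 1 higher. Quantile normalization gave 8 signalling genes lower, and upper-quartile scaling 1 higher. With both replicates numbered 3 left out, 4 receptors were lower and 6 signalling genes higher. One further ligand, Eda, was called higher with no filter or a mean of at least 0.1 FPKM (1 in each). Leaving out 1 library gave 1047 to 1717 genes lower and 2442 to 4228 higher, 2 to 4 receptors lower (4 without WT-labelled replicate 3), 1 to 2 mRNA control genes lower (1 without WT-labelled replicate 1 or 2 or KO-labelled replicate 1 or 2) and 1 to 2 signalling genes higher. The cause was not tested.

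No pairing of the libraries by replicate numbers 1 and 2 was seen. Correlations of deviations from the group mean were 0.116 and 0.036 for these numbers. They were 0.160 for WT-labelled 1 with KO-labelled 2 and 0.121 for WT-labelled 2 with KO-labelled 1. The libraries numbered 3 did go together (0.264), and each correlated negatively with the other libraries of the other group (-0.233 to -0.131). Deviations sum to 0 within each group of 3, so these correlations depend on one another and the negative ones add no separate evidence. With so few libraries they cannot settle whether numbers 1 and 2 were paired. With the replicate block 1681 genes were lower and 4253 higher, and the ligand calls were 6 lower and 2 higher.

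Depth limits the low ligands: 1 fragment is worth about 0.0110 FPKM for Tnfsf10 and 0.0366 FPKM for Tnfsf13.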
